A study of Homo sapiens with 6 samples.

Results

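Cholesterol synthesis, uptake and sterol sensing was described through 31 named genes of the pathway, each read from the probe set with the highest mean over the 6 arrays among those that the platform annotation gives to that gene alone. Of the 31 genes, 29 were measured in this way, of 18417 genes measured singly on the arrays. FDFT1 (squalene synthase) and HSD17B7 (a sterol ketoreductase) had no probe set under their symbol alone in the annotation used and were not analysed here. Total RNA came from MDA-MB231, an established line of human metastatic breast cancer cells, hybridised to 3 arrays for the parental cells (control) and 3 for a stable G9a knockdown, which is 1 clone and which the labels call less metastatic. The targeted gene is EHMT2; its product G9a methylates histone H3, a mark of gene silencing. All 6 samples came from cells in serum-containing medium, harvested during logarithmic growth. The labels call the control untreated and describe no control vector, so the clone's selection and the knockdown itself cannot be told apart. How the replicates were made is not described, and if they were not separate cultures the p-values reflect technical spread between samples alone.

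Cells make cholesterol from acetyl-CoA through mevalonate, the isoprenoid diphosphates, squalene and lanosterol, and a series of late enzymes trims lanosterol to cholesterol. The transcription factor SREBP2, encoded by SREBF2, drives most of these genes. Its precursor sits in the endoplasmic reticulum bound to the escort protein SCAP, and INSIG proteins hold this complex there while sterols are plentiful. When sterols run short the complex moves to the Golgi, where SREBP2 is cut and released to the nucleus. Excess cholesterol is esterified or exported, the latter under the oxysterol-sensing LXR receptors. Breast cancer cells in culture both make cholesterol and take it up from serum lipoproteins.

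Values are log2 intensities as deposited, and differences are knockdown minus control with the standard error (SE) from limma, n = 3 arrays per group. A gene was called changed at a Benjamini-Hochberg adjusted p of 0.05 over all 18417 genes. EHMT2 read 10.21, 10.27 and 9.93 on control replicates 1 to 3 and 9.66, 9.59 and 9.51 on knockdown replicates 1 to 3, a fall of 0.55 ± 0.10 (SE; limma, adjusted p = 0.0259). Its groups did not overlap, and the level in the knockdown was 0.681 of control. With 1 array left out the EHMT2 call held only without control replicate 3, the adjusted p in the other 5 fits running up to 0.122. Control replicate 3 stood apart from the other control arrays on the cholesterol genes, as given with the results, but not on these alone. On EHMT2 it lay -0.31 from their mean. Over all genes control replicates 1 and 2 correlated at a Pearson r of 0.998, and replicate 3 with them at 0.995 and 0.996. The r of control replicates 1 and 2 with the knockdown arrays ran from 0.994 to 0.997. Limma's array weights gave control replicate 3 the lowest weight of the 6 arrays, 0.273, followed by knockdown replicate 1 at 0.413. The 6 markers of this line that should be present, among them VIM and CD44, read 12.05 to 13.70. The receptor genes ESR1, PGR and ERBB2 and the cadherin gene CDH1, which should be low, read 5.38 to 9.84; no background value was used, so absence was not decided. CDH1 passed, higher in the knockdown by 0.45 (limma, adjusted p = 0.0177), and did so in 1 of the 6 fits with 1 array left out. Among 5 leukocyte markers none passed. Of 8 endothelial and fibroblast markers CDH5 passed, higher in the knockdown by 0.71 (limma, adjusted p = 0.0210), and in 2 of those 6 fits. Summed on the linear scale, those 8 markers ran from 1286 to 1564 in control and from 1662 to 1754 in the knockdown, and the 5 leukocyte markers from 616 to 662 and from 668 to 705. The part of these markers in the results was not tested.

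Of the 29 measured genes 7 fell in the G9a knockdown, none rose and 22 did not pass (limma). At an unadjusted p of 0.05, 17 were lower and 1, SCAP, was higher, against 9.23% and 10.1% of all genes. Those that fell were INSIG1, a sterol sensor, the synthesis enzymes HMGCS1, SC5D, IDI1 and CYP51A1, the sterol carrier STARD4, and LPIN1. The 7 are 24.1% of the measured genes, against 1.78% of all genes tested called lower and 1.28% called higher. Differences were negative for 25 of the 29, against 40.4% of all genes, and the median over the 29 was -0.26 against 0.031 over all genes. All knockdown arrays lay below all control arrays for 20 of the 29, where 12.7% of all genes did so, and above them for 3, where 14.3% of all genes did. Among the 184 lowest differences on the array, 1% of genes, were 8 of the 29. The genes were chosen with earlier results of these data known, so these contrasts with all genes are no test of the list. In bulk RNA, fewer cells of a kind and less RNA per cell cannot be told apart.

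**Figure D1:**
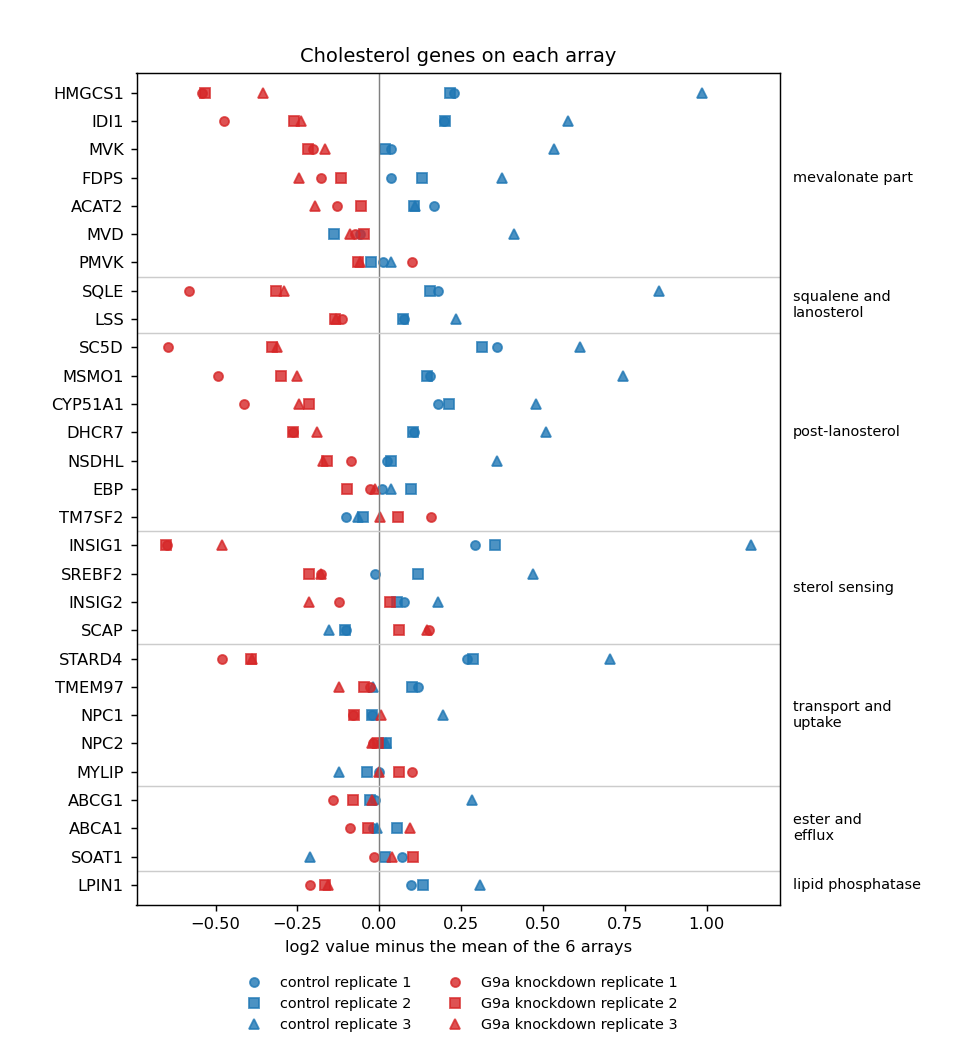
Each row is 1 gene, grouped by pathway step; the x axis is the log2 value on each array minus that gene's mean over the 6 arrays, with blue points for the 3 control arrays and red points for the 3 knockdown arrays. Control replicate 3 (blue triangles) is the highest array for 20 of the 29 genes, and red points lie left of all blue points for 20 of the 29.

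The 7 calls depended on which arrays were used. Without control replicate 3 all 7 remained and SQLE, MSMO1 and DHCR7 joined them, with 1.7% of all genes then called lower and 1.21% higher. Without control replicates 1 and 2 the count was 6 and 3, with 0.684% and 0.434% of all genes called lower. Without knockdown replicates 1, 2 and 3 it was 1, 3 and 0, with 0.195%, 0.679% and 0.125% of all genes called lower. In the fit without knockdown replicate 3, where limma called none of the 29, 15 were lower and 2 higher at an unadjusted p of 0.05, against 7.22% and 8.07% of all genes. At least 24 of the 29 differences were negative in each of those 6 fits. SC5D passed in 5 of the 6, STARD4 in 4, INSIG1 and CYP51A1 in 3, HMGCS1 and IDI1 in 2, and LPIN1 in 1.

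Promoter sequence is shown for the 4 genes with the largest falls and for CYP51A1 as a called gene with no CCAAT match. It is also shown for SREBF2, the 1 gene among those searched with a match to the form of the sterol element used here. RefSeq (GRCh38.p14) windows of 250 bases before a transcript start were found for 26 of the 29 genes, 35 windows in all, since some genes have several starts whose windows can overlap; ACAT2, SQLE and ABCG1 had none. Searches on both strands used TCACNCCAC, a form of the sterol regulatory element that SREBP proteins bind, CCAAT, the core of the NF-Y site, and GGGCGG, the core of the GC box bound by Sp1. Capitals mark TCACNCCAC and CCAAT on either strand, so a match on the opposite strand appears as GTGGNGTGA or ATTGG. Each sequence runs 5′ to 3′ toward the gene.
INSIG1, chr7:155297628-155297877, plus strand: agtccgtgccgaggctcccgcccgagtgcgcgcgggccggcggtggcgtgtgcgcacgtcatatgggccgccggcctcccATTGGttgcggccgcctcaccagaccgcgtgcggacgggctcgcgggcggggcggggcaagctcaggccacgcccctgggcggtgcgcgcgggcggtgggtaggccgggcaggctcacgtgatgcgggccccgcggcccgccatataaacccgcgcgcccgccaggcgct
HMGCS1, chr5:43313413-43313662, minus strand: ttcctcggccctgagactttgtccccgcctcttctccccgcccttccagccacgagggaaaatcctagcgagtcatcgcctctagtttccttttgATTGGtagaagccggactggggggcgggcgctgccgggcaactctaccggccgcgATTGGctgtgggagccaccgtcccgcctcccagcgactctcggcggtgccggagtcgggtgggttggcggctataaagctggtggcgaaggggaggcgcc
SC5D, chr11:121292521-121292770, plus strand: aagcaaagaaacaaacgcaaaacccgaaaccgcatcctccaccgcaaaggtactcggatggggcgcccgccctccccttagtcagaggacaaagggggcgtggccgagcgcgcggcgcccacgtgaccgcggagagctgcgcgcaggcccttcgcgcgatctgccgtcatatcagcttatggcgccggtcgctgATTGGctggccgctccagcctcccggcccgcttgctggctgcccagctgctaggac
STARD4, chr5:111512536-111512785, minus strand: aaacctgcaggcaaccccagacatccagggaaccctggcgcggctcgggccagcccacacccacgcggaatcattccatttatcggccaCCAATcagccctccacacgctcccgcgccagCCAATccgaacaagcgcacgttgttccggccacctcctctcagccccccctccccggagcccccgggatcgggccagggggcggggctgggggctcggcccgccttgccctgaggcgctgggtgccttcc
CYP51A1, chr7:92134478-92134727, minus strand: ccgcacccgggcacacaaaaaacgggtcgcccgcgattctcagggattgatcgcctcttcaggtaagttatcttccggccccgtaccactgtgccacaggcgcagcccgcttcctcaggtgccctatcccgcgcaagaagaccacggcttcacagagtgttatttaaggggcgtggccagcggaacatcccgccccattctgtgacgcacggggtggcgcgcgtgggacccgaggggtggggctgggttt
SREBF2, chr22:41832855-41833104, plus strand: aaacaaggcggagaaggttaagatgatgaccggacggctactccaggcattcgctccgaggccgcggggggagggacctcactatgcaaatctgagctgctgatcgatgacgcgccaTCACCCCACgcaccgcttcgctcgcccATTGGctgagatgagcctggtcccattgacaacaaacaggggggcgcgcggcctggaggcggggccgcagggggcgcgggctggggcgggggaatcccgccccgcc

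CCAAT was in 21 of the 35 windows, against 32.0% of all 35116 promoter windows of the same length. Of the printed windows, that of HMGCS1 held 2 matches, 155 and 100 bases before the start it belongs to, STARD4 2, at 161 and 130 bases, SC5D 1, at 56 bases, and INSIG1 1, at 170 bases. HMGCS1 and SC5D each have a second window, not printed, which held no match for HMGCS1 (chr5:43313182-43313431) and 1 match at 137 bases for SC5D (chr11:121292602-121292851). The SC5D windows overlap, and this match is the same ATTGG as in the printed window, so it counts for both windows. By gene, CCAAT was found for 5 of the 7 called genes and for 14 of the 19 others searched. Over all 27305 genes with a window it was found for 37.0%. The GC box was in 32 of the 35 windows, against 42.6% of all. TCACNCCAC was in 1 window of the 35, that of SREBF2 at 133 bases, with a CCAAT at 106 bases and no overlap between them, against 0.883% of all windows. These matches describe the letters of the windows. Other forms of the sterol element were not searched, so a window without TCACNCCAC was not shown to lack the element. No binding was measured.

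In the mevalonate steps HMGCS1 and IDI1 fell, and the 5 others did not pass. HMGCS1, which condenses acetoacetyl-CoA and acetyl-CoA to HMG-CoA, read 9.70, 9.69 and 10.46 on control replicates 1 to 3 and 8.93, 8.94 and 9.12 on knockdown replicates 1 to 3. Every knockdown array lay below every control array, and control replicate 3 was 0.76 above the mean of the other control arrays. HMGCS1 fell by 0.95 ± 0.19 (SE; limma, adjusted p = 0.0395), to 0.517 of control; the difference was -0.70 without control replicate 3 (adjusted p = 0.0119). IDI1, the isomerase that makes dimethylallyl diphosphate, read 11.27, 11.27 and 11.65 in control and 10.60, 10.81 and 10.83 in the knockdown, with knockdown replicate 1 lowest and no overlap. It fell by 0.65 ± 0.12 (limma, adjusted p = 0.0285), to 0.637 of control, and the difference was -0.52 without control replicate 3.

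Other enzymes of this stretch had smaller differences. FDPS, which builds farnesyl diphosphate, read 9.59, 9.68 and 9.93 in control and 9.38, 9.44 and 9.31 in the knockdown, a difference of -0.36 (95% interval -0.57 to -0.15; limma, adjusted p = 0.0795). ACAT2, the cytosolic thiolase that supplies acetoacetyl-CoA, read 10.71, 10.65 and 10.65 against 10.41, 10.48 and 10.34, a difference of -0.26 (interval -0.40 to -0.11; limma, adjusted p = 0.0693). The groups of neither gene overlapped; control replicate 3 was the highest array for FDPS but not for ACAT2. MVK, the first kinase acting on mevalonate, read 9.14, 9.13 and 9.64 in control and 8.91, 8.89 and 8.94 in the knockdown. Control replicate 3 was 0.51 above the other control arrays here, and the MVK difference of -0.39 (interval -0.69 to -0.092; limma, adjusted p = 0.151) was -0.22 without it. MVD, the decarboxylase that yields isopentenyl diphosphate, read 9.45, 9.37 and 9.92 in control and 9.43, 9.46 and 9.42 in the knockdown. Its groups overlapped: control replicate 3 alone was high, and the difference of -0.14 (interval -0.44 to 0.16) turned to 0.028 without that array. PMVK, the second kinase, read 7.37 to 7.54 over the 6 arrays with a difference of -0.016 (interval -0.17 to 0.14), whose sign turned without knockdown replicate 2 or 3.

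The squalene and lanosterol enzymes SQLE and LSS were lower on every knockdown array but did not pass. SQLE, the epoxidase of the pathway's first oxygen-dependent step, read 9.98, 9.96 and 10.66 in control and 9.22, 9.49 and 9.51 in the knockdown. Control replicate 3 was the highest array, 0.69 above the mean of the other control arrays, and knockdown replicate 1 the lowest. The difference was -0.79 ± 0.18 (SE; interval -1.21 to -0.38; limma, adjusted p = 0.0587), and -0.56 without control replicate 3, where it passed (adjusted p = 0.0369). LSS, which folds epoxidised squalene into lanosterol, read 10.08, 10.08 and 10.24 in control and 9.89, 9.88 and 9.88 in the knockdown, with the 3 knockdown arrays spanning 0.019. Its difference was -0.25 (interval -0.40 to -0.10; limma, adjusted p = 0.0818).

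Of the 7 measured enzymes that turn lanosterol into cholesterol, SC5D and CYP51A1 fell and 5 did not pass. SC5D, a late sterol desaturase, read 11.83, 11.79 and 12.09 in control and 10.83, 11.15 and 11.16 in the knockdown. Knockdown replicate 1 was the lowest array, and the groups were 0.63 apart at their nearest points. SC5D fell by 0.86 ± 0.11 (SE; limma, adjusted p = 0.0112), to 0.552 of control; the difference was -0.76 without control replicate 3. CYP51A1, the cytochrome P450 that demethylates lanosterol, read 11.13, 11.17 and 11.43 against 10.54, 10.74 and 10.71 and fell by 0.58 ± 0.10 (limma, adjusted p = 0.0209); without control replicate 3 the difference was -0.49. It was the 1 gene of the 29 with 2 probe sets, and the other read 10.20, 10.28 and 10.45 in control and 9.80, 9.91 and 9.80 in the knockdown, a difference of -0.47. Neither CYP51A1 probe set showed an overlap.

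MSMO1 and DHCR7 missed the threshold with differences of -0.69 and -0.48. MSMO1, a sterol methyl oxidase, read 12.22, 12.21 and 12.81 in control and 11.57, 11.76 and 11.81 in the knockdown (interval -1.06 to -0.33; limma, adjusted p = 0.0574). DHCR7, the reductase of the final step in one branch, read 11.66, 11.65 and 12.06 against 11.29, 11.29 and 11.36 (interval -0.73 to -0.23; limma, adjusted p = 0.0602). In both, control replicates 1 and 2 were close, 0.0095 and 0.0007 apart, and control replicate 3 was higher, by 0.60 for MSMO1 and 0.41 for DHCR7. Without that array the 2 genes passed at -0.50 (adjusted p = 0.0335) and -0.34 (adjusted p = 0.0324). NSDHL, a sterol dehydrogenase, read 10.93, 10.95 and 11.27 in control and 10.82, 10.75 and 10.74 in the knockdown, a difference of -0.28 (interval -0.50 to -0.059; limma, adjusted p = 0.163), and -0.17 without control replicate 3.

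EBP and TM7SF2 had the smallest differences among these late enzymes. EBP, a sterol isomerase, read 10.04, 10.13 and 10.07 against 10.01, 9.93 and 10.02, a difference of -0.093 (interval -0.23 to 0.044). TM7SF2, a sterol reductase of the endoplasmic reticulum, was the 1 synthesis enzyme with a positive difference, 0.14 (interval -0.0011 to 0.29; limma, adjusted p = 0.261), reading 8.02, 8.08 and 8.06 in control and 8.28, 8.18 and 8.13 in the knockdown. Over the 16 synthesis enzymes 4 fell, none rose and 15 differences were negative, with a median of -0.38 (-0.26 without control replicate 3). Over all genes 1.78% were called lower, 1.28% higher and 40.4% of differences were negative, with a median of 0.031.

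**Figure D2:**
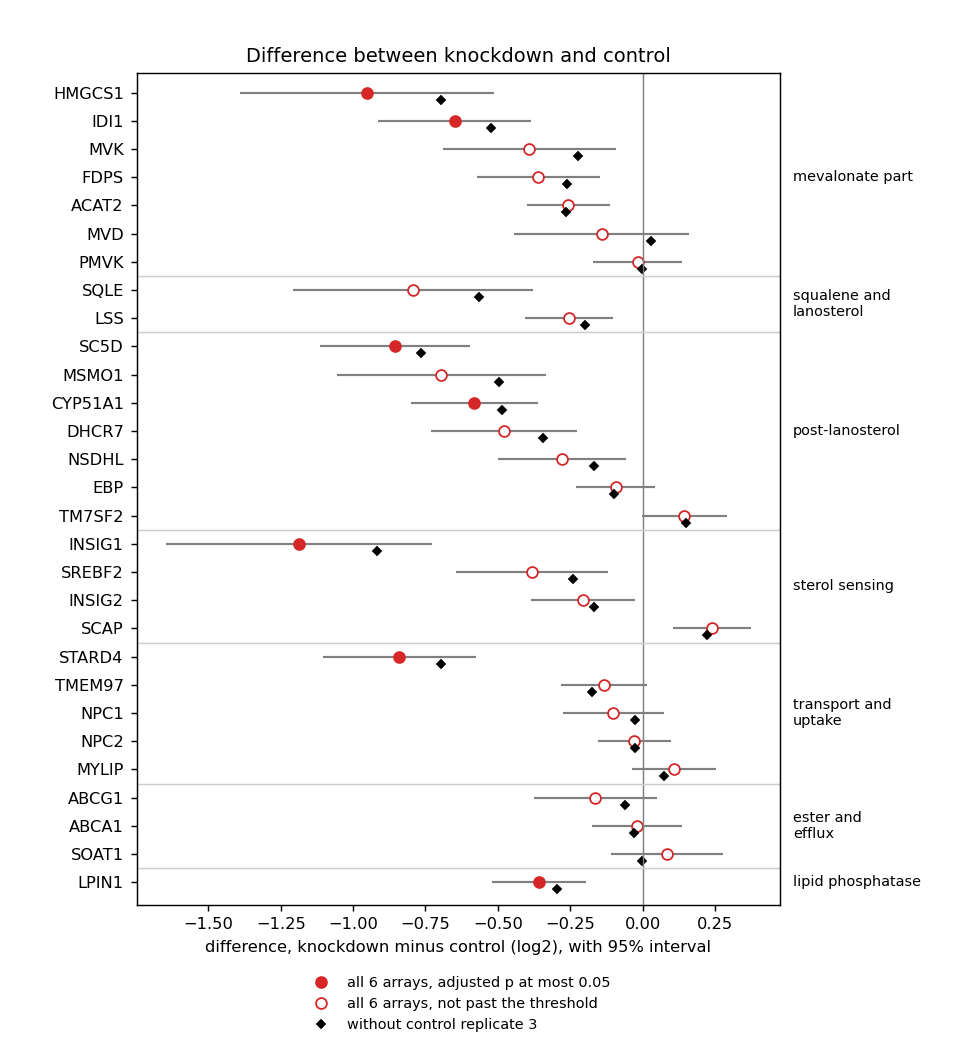
The x axis is the log2 difference, knockdown minus control, for each gene by pathway step; circles use all 6 arrays with the 95% interval from limma, filled where the adjusted p passed, and black diamonds leave out control replicate 3. INSIG1 lies farthest left at -1.19, and its value without control replicate 3 is -0.92.

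Among the sterol sensing genes INSIG1 fell, and its paralog INSIG2, the SREBP2 gene SREBF2 and SCAP did not pass. INSIG1 read 10.85, 10.91 and 11.69 on control replicates 1 to 3 and 9.91, 9.91 and 10.08 on knockdown replicates 1 to 3. Control replicate 3 was 0.81 above the other control arrays, yet these too lay well above the knockdown arrays. INSIG1 fell by 1.19 ± 0.20 (SE; limma, adjusted p = 0.0236), to 0.439 of control; the difference was -0.92 without control replicate 3 (adjusted p = 0.00600). It was the 1 gene of the 29 with a difference of 2-fold or more. INSIG2, which also retains SCAP but is the INSIG gene less tied to SREBP activity, read 9.49, 9.47 and 9.59 in control and 9.29, 9.44 and 9.20 in the knockdown, a difference of -0.21 (interval -0.39 to -0.025; limma, adjusted p = 0.204). The intervals of INSIG1 and INSIG2 did not overlap; the difference between the 2 genes was not tested.

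SREBF2 and SCAP, the factor and its escort, had differences of opposite sign. SREBF2, whose own promoter window held the searched form of the sterol element, read 9.93, 10.07 and 10.42 in control and 9.77, 9.73 and 9.77 in the knockdown. The knockdown arrays spanned 0.036 and lay below all control arrays, for a difference of -0.38 (interval -0.64 to -0.12; limma, adjusted p = 0.119), or -0.24 without control replicate 3. SCAP read 10.52, 10.52 and 10.47 in control and 10.78, 10.68 and 10.77 in the knockdown, all knockdown arrays above all control arrays. Its difference of 0.24 (interval 0.10 to 0.37; limma, adjusted p = 0.0715) moved little without control replicate 3, to 0.22.

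Of the 5 genes of sterol transport and uptake STARD4 fell. STARD4, a soluble carrier of sterols between membranes, read 9.62, 9.64 and 10.06 in control and 8.87, 8.96 and 8.97 in the knockdown. The lowest control array was 0.66 above the highest knockdown array. It fell by 0.84 ± 0.12 (SE; limma, adjusted p = 0.0125), to 0.559 of control, and by 0.70 without control replicate 3 (adjusted p = 0.00650). NPC1 and NPC2, the membrane and soluble proteins that carry cholesterol out of lysosomes, differed by -0.10 (interval -0.28 to 0.075) and -0.028 (interval -0.15 to 0.10). NPC1 read 12.49, 12.49 and 12.71 in control and 12.44, 12.44 and 12.52 in the knockdown, overlapping, and without control replicate 3 its difference was -0.028. NPC2 read 12.87 to 12.91 on all 6 arrays.

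TMEM97 and MYLIP had small differences. TMEM97, an endoplasmic reticulum protein that binds NPC1, read 11.84, 11.82 and 11.70 against 11.69, 11.67 and 11.59, a difference of -0.13 (interval -0.28 to 0.016; limma, adjusted p = 0.307). Here control replicate 3 was the lowest control array, and without it the value was -0.18. MYLIP, an LXR-induced ubiquitin ligase that marks lipoprotein receptors for degradation, read 10.31, 10.27 and 10.19 against 10.41, 10.37 and 10.31, a difference of 0.11 (interval -0.037 to 0.25), or 0.072 without control replicate 3. The knockdown arrays of MYLIP lay above the control arrays by 0.0002 at the nearest pair.

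None of the 3 esterification and efflux genes passed, and in each the groups overlapped. SOAT1, which esterifies cholesterol for storage, read 11.50, 11.44 and 11.21 in control and 11.41, 11.53 and 11.46 in the knockdown. Control replicate 3 was its lowest array, and the difference of 0.083 (interval -0.11 to 0.28) was -0.0016 without it. The LXR-induced exporter gene ABCA1 read 9.53, 9.60 and 9.54 in control and 9.46, 9.51 and 9.64 in the knockdown, a difference of -0.020 (interval -0.18 to 0.14), with a sign that turned without control replicate 2 or knockdown replicate 1. ABCG1, the other exporter, read 7.73, 7.72 and 8.03 against 7.60, 7.66 and 7.72, a difference of -0.16 (interval -0.37 to 0.049) that was -0.061 without control replicate 3. LPIN1, a phosphatidate phosphatase of glycerolipid synthesis whose gene is an SREBP target, read 10.48, 10.51 and 10.68 in control and 10.17, 10.21 and 10.22 in the knockdown. It fell by 0.36 ± 0.071 (SE; limma, adjusted p = 0.0389), to 0.780 of control, with no overlap, and the difference was -0.29 without control replicate 3. The LPIN1 call was lost after quantile normalization (adjusted p = 0.0521) and in the 5 fits that each left out an array other than control replicate 3, where the adjusted p ran up to 0.138.

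The control arrays differed among themselves on the same genes. Control replicates 1 and 2 were 0.026 apart at the median of the 29, and at most 0.132 apart, against a median of 0.060 over all genes. Control replicate 3 was above their mean by 0.28 at the median, against 0.0091 over all genes. It was the highest of the 6 arrays for 20 of the 29 and for all 7 called genes, where it was highest for 19.8% of all genes. The 7 were called for control values above knockdown values, so one of the control arrays had to be their highest. The same holds for each gene whose knockdown arrays all lay below its control arrays, which were 20 of the 29. The 19.8% is therefore not a like share for these genes. The knockdown arrays were -0.20 from control replicates 1 and 2 at the median. The control SD had a median of 0.16 over the 29 and the knockdown SD 0.06, against 0.09 and 0.08 over all genes. Knockdown replicate 1 was the lowest array for 11 of the 29 and for 6 of the 7 called genes, which were called for low knockdown values. How often it was the lowest array over all genes was not counted.

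From gene to gene, the excess on control replicate 3 and the distance of the knockdown from the other control arrays took different sizes. MVK and MVD read 0.51 and 0.51 higher on control replicate 3 than on the other control arrays, while their knockdown arrays lay -0.22 and 0.028 from those. For SC5D the 2 values were 0.28 and -0.76, for ACAT2 -0.027 and -0.27, and for INSIG1 0.81 and -0.92. These pairs share control replicates 1 and 2 and are given as values. The cause of the spread among control arrays was not tested.

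Genes around the core pathway were counted by list. For comparison, 1.78% of all genes were called lower and 1.28% higher, with a median difference of 0.031. Of 17 prenyl and isoprenoid genes measured, FNTA, a subunit of protein farnesyl and geranylgeranyl transferases, fell by 0.41 (limma, adjusted p = 0.0162), none rose and 16 did not pass. The median of that list was -0.023. Of 22 genes for SREBP processing and sterol-regulated degradation, SAR1B and SEC24A, coat components of vesicles leaving the endoplasmic reticulum, fell by 0.40 (limma, adjusted p = 0.0322) and 0.39 (adjusted p = 0.0197). None of this list rose, 20 did not pass and the median was -0.028. With 1 array left out FNTA passed in 3 of the 6 fits, failing without control replicate 2 or knockdown replicate 1 or 3, SAR1B passed only without knockdown replicate 2 and SEC24A only without control replicate 3; the adjusted p ran up to 0.0951, 0.138 and 0.0920.

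Among 21 genes of sterol uptake, endosomes and transfer, the endoplasmic reticulum sterol transporter gene GRAMD1B rose by 0.34 (limma, adjusted p = 0.0316) and its paralog GRAMD1C fell by 0.36 (adjusted p = 0.0496); 19 did not pass and the median was -0.072. GRAMD1B passed only without control replicate 3 among the 6 fits with 1 array left out (adjusted p up to 0.112), and GRAMD1C in none of them (up to 0.143); GRAMD1C also missed the threshold after quantile normalization (0.0550) and with every probe set tested (0.0524). Of 13 LXR, oxysterol and ester genes, RXRA, the nuclear receptor partner of LXR, rose by 0.29 (limma, adjusted p = 0.0406), and 12 did not pass, with a list median of 0.030. RXRA passed in none of the 6 fits with 1 array left out (adjusted p up to 0.149) and missed the threshold after median centring (0.0588).

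Fatty acid synthesis genes under SREBP1, the related factor, had the lowest median of the 5 surrounding lists. SCD, the stearoyl-CoA desaturase gene, read 12.58, 12.64 and 13.13 in control and 11.61, 11.78 and 11.92 in the knockdown and fell by 1.02 ± 0.15 (SE; limma, adjusted p = 0.0146; -0.84 without control replicate 3). ACSL1, an acyl-CoA synthetase gene, fell by 0.48 (limma, adjusted p = 0.0157). SCD did not pass without knockdown replicate 1 or 3 (adjusted p up to 0.0694), nor ACSL1 without those or control replicate 2 (up to 0.0652). Of 19 measured genes these 2 fell, none rose and 17 did not pass. That median was -0.19, and control replicate 3 was the highest array for 12 of the 19, where it was highest for 19.8% of all genes.

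**Figure D3:**
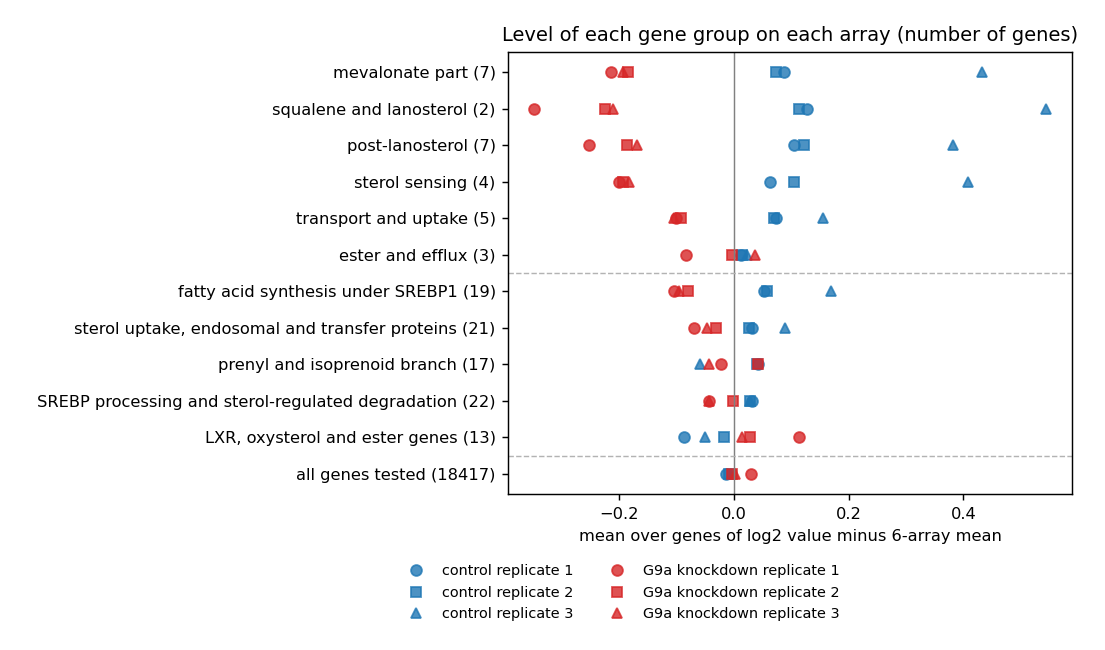
Each row is a gene group with its number of measured genes; the x axis is the mean over the group of log2 values minus each gene's 6-array mean, with blue points for control arrays and red for knockdown arrays. The rows above the first dashed line are the cholesterol steps, those between the lines the surrounding lists, and the last row all genes; on the mevalonate row control replicate 3 sits at 0.43, the other control arrays at 0.088 and 0.073, while the red points lie between -0.21 and -0.19.

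The knockdown is a single clone, so each gene was set beside its chromosomal neighbours, the 10 measured genes on each side in the gene order of GRCh38.p14 (fewer at chromosome ends). The 7 called genes lie on 5 chromosomes, and their neighbours had medians from -0.046 to 0.049. Around INSIG1 on chromosome 7 the neighbour median was 0.036, around HMGCS1 on chromosome 5 -0.035, around SC5D on chromosome 11 0.023 and around STARD4 on chromosome 5 -0.046. Of the 138 neighbours of called genes 7 were called lower, a larger share than the 1.78% of all genes called lower. Among them were 3 of the 20 around SC5D and 2 of the 20 around HMGCS1. MSMO1 on chromosome 4 had the lowest neighbour median of the 29, -0.086, beside its own -0.69. In all, 25 of the 29 genes lay below their neighbours' median, and the neighbour medians ran from -0.086 to 0.10. Those 25 are the same genes that had negative differences, so this count repeats the count of signs and adds nothing to it.

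**Figure D4:**
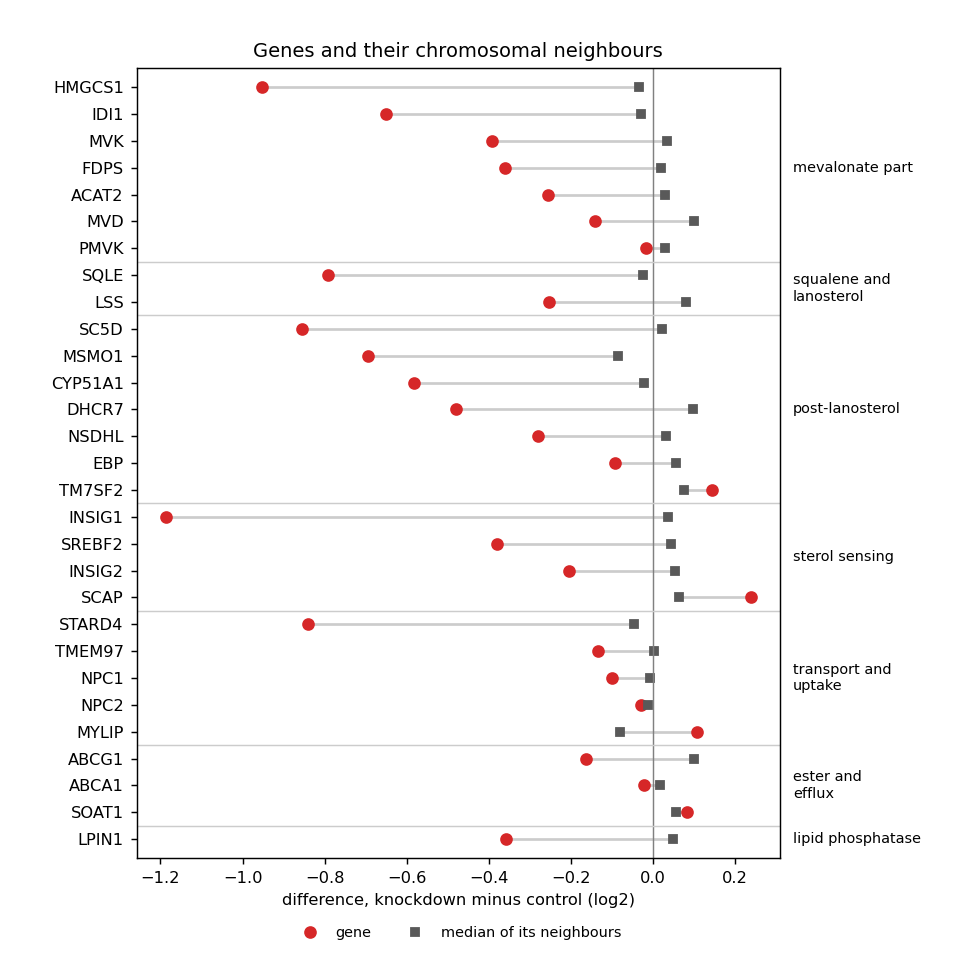
For each gene the red circle is its log2 difference, knockdown minus control, and the grey square the median difference of up to 20 neighbouring genes. The squares stay between -0.086 and 0.10, while the circles reach -1.19.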

How the data were processed

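Gene expression was measured on 6 single-colour arrays. The authors deposited 1 log2 value per probe set and array, already summarised; which software did so is not given in the labels, and log2 was inferred from the range, 2.13 to 14.8. Of 33297 probe sets, 19460 had 1 gene symbol, 1754 several and 12083 none in the platform annotation. Symbols were updated through the Entrez number against RefSeq (GRCh38.p14), where 19429 were found. No filter on low values was applied. The test was limma 3.58.1 under R 4.3.3 on every gene (lmFit, eBayes, two-sided, no covariate; group from the sample titles). The alternatives were quantile normalization, median centring, a filter on low genes, other probe-set choices, a variance trend, array weights, a replicate block and leaving out each array. Only the main limma fit was tested on simulated arrays, with independent noise and no array set apart from the others. The alternatives, the neighbours and the promoter search were not tested in this way. The 31 genes and the other lists were chosen with earlier results of these data known. All measured genes of the 31 were named; of each other list, up to 4 past the threshold were named by size. Lists were described by counts and medians without a test of their own. The number of arrays limits the precision.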

Additional observations from a re-analysis of the deposited data

How the results depend on the processing

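The median over the 29 genes stayed between -0.28 and -0.20 under every alternative run. The count called lower was 6 after quantile normalization, 10 after median centring, 8 with a replicate block, 13 with the lowest 33.3% of genes by mean left out or with a variance trend, and 16 with array weights; with 1 array left out it ran from 0 to 10. With low genes left out, a variance trend or array weights, SCAP was called higher, a count of 1 against 0. Genes called in the whole table numbered 972 with the lowest 33.3% left out, 1083 with a variance trend, 3328 with array weights and 217 with the replicate block, and from 44 to 535 with 1 array left out. EHMT2 ran from -0.66 to -0.49 with 1 array left out. Signs turned for 4 genes that did not pass: MVD to 0.023 with array weights and from -0.25 to 0.028 with 1 array left out, PMVK from -0.071 to 0.012, SOAT1 from -0.0016 to 0.14 and ABCA1 from -0.072 to 0.019; the median of the esterification and efflux genes, which is that of ABCA1, turned with it. The titles do not state whether the replicate numbers pair the arrays. Deviations of same-numbered arrays from their group means correlated at -0.246, 0.122 and 0.0877, and not every array correlated best with its own number. Deviations within a group cancel out, so these correlations depend on each other and cannot decide a pairing. The replicate block removed LPIN1 and added SQLE and MSMO1. In the surrounding lists it removed FNTA, SAR1B, SEC24A, GRAMD1B, GRAMD1C and RXRA. The cause of these changes was not tested. No background value was used, so signal over background was not assessed.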
